A study of Mus musculus with 9 samples.

Results

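Cyp4a14 encodes a cytochrome P450 of the CYP4A subfamily, a fatty acid omega-hydroxylase of the endoplasmic reticulum. The gene was taken by its symbol, from the only row of the value table annotated to Cyp4a14 alone, and is 1 of 22180 genes with such a row. It was chosen by its measured signal, higher in ligated than in sham kidneys and higher again with norUDCA, so its own levels and differences are given as a description and without a test. The samples were 9 whole-transcript arrays of mouse kidney RNA, 3 per group. In the norUDCA-prefed CBDL group (arrays norUDCA_CBDL_172, norUDCA_CBDL_175 and norUDCA_CBDL_179) mice were fed norursodeoxycholic acid, a side-chain-shortened bile acid, for 5 days ahead of a common bile duct ligation (CBDL), and the kidneys date from 3 weeks of ligation. The CBDL group (arrays CBDL_164, CBDL_165 and CBDL_170) had the same 3 weeks of ligation without norUDCA, and the sham group (arrays sham_158, sham_159 and sham_160) a sham operation 3 weeks before. The labels do not give strain, sex, age, diet after the operation or whether the replicates are separate animals. The p-values therefore cover the spread among these 9 arrays, which may be technical. No sham group with norUDCA was analysed here.

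CYP4A enzymes add a hydroxyl group to the last carbon of medium and long-chain fatty acids, and the product is oxidised further by alcohol and aldehyde dehydrogenases to a dicarboxylic acid that peroxisomes shorten. Some members also convert arachidonic acid to 20-HETE, a regulator of tubular salt transport and vascular tone. Transcription of Cyp4a14 is a textbook target of PPARalpha, a nuclear receptor for fatty acids that pairs with RXR and also drives genes of peroxisomal and mitochondrial fatty acid oxidation. In mice Cyp4a14 is one of a cluster of related genes, and in the RefSeq gene table (GRCm38.p6) the neighbouring genes in order are Cyp4a30b and Cyp4a10.

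On the 3 norUDCA-prefed CBDL arrays the log2 signal of Cyp4a14 was 10.21 (norUDCA_CBDL_172), 9.53 (norUDCA_CBDL_175) and 10.41 (norUDCA_CBDL_179). On the CBDL arrays it was 8.77 (CBDL_164), 8.77 (CBDL_165) and 8.95 (CBDL_170). On the sham arrays it was 6.04 (sham_158), 6.24 (sham_159) and 5.68 (sham_160). The order of the groups was thus norUDCA-prefed CBDL, CBDL and sham from high to low, with no overlap between any pair of neighbouring groups. Over all genes 8.96% had every norUDCA-prefed CBDL array above every sham array, 15.6% every CBDL array above every sham array and 11.6% every norUDCA-prefed CBDL array above every CBDL array. Means were 10.05 ± 0.47 in norUDCA-prefed CBDL, 8.83 ± 0.11 in CBDL and 5.99 ± 0.28 in sham (SD, n = 3 each). norUDCA_CBDL_175 was the lowest of its group and still lay 0.58 above the highest CBDL array. The range within a group was 0.89 for norUDCA-prefed CBDL, 0.18 for CBDL and 0.56 for sham.

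**Figure D1:**
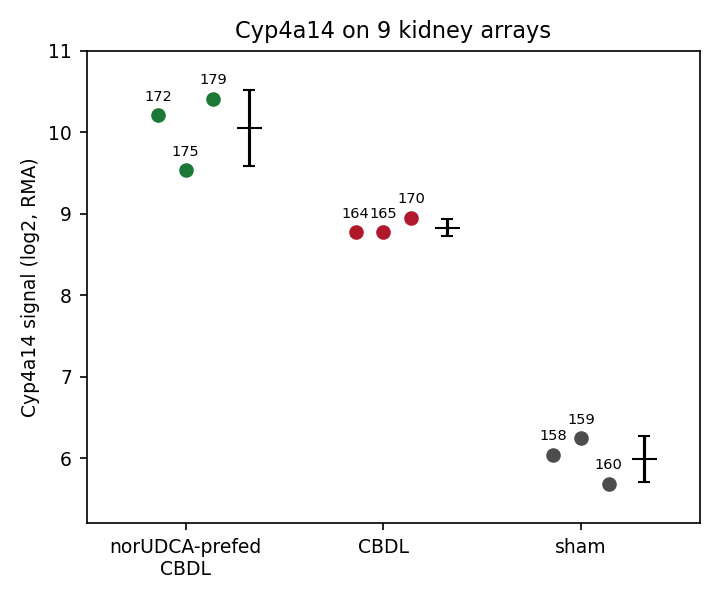
Log2 signal of Cyp4a14 on each array (points, with the array's number) by group, with the mean and SD of the 3 arrays as a bar beside them. The norUDCA-prefed CBDL arrays lie between 9.53 and 10.41, above the CBDL arrays at 8.77 to 8.95, which lie above the sham arrays at 5.68 to 6.24.

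The difference of group means was 4.06 on the log2 scale for norUDCA-prefed CBDL minus sham, a 16.7-fold higher signal. It was 2.84 for CBDL minus sham (7.16-fold) and 1.22 for norUDCA-prefed CBDL minus CBDL (2.34-fold). Between single arrays the fold ran between 9.76 and 26.5 for norUDCA-prefed CBDL over sham, between 5.76 and 9.62 for CBDL over sham and between 1.49 and 3.13 for norUDCA-prefed CBDL over CBDL. Sorted by the increase in signal, Cyp4a14 was at place 1 of 22180 genes for norUDCA-prefed CBDL minus sham, at place 36 for CBDL minus sham and at place 162 for norUDCA-prefed CBDL minus CBDL. The next largest increases of norUDCA-prefed CBDL over sham were those of Havcr1, a marker of injured proximal tubule, at 4.03, and of the protease inhibitor gene Serpina3n at 3.77. Over all genes 1.82% were called higher and 1.37% lower in norUDCA-prefed CBDL than in sham, 10.3% higher and 11.5% lower in CBDL than in sham, and 3.61% higher and 3.2% lower (6.8% in all) in norUDCA-prefed CBDL than in CBDL, where a call is an adjusted p under 0.05. The 3 comparisons share arrays pairwise and are not independent of each other. The sham level of 5.99 is close to the array medians of 5.7 to 5.8, and the files do not say whether it stands above background.

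**Figure D2:**
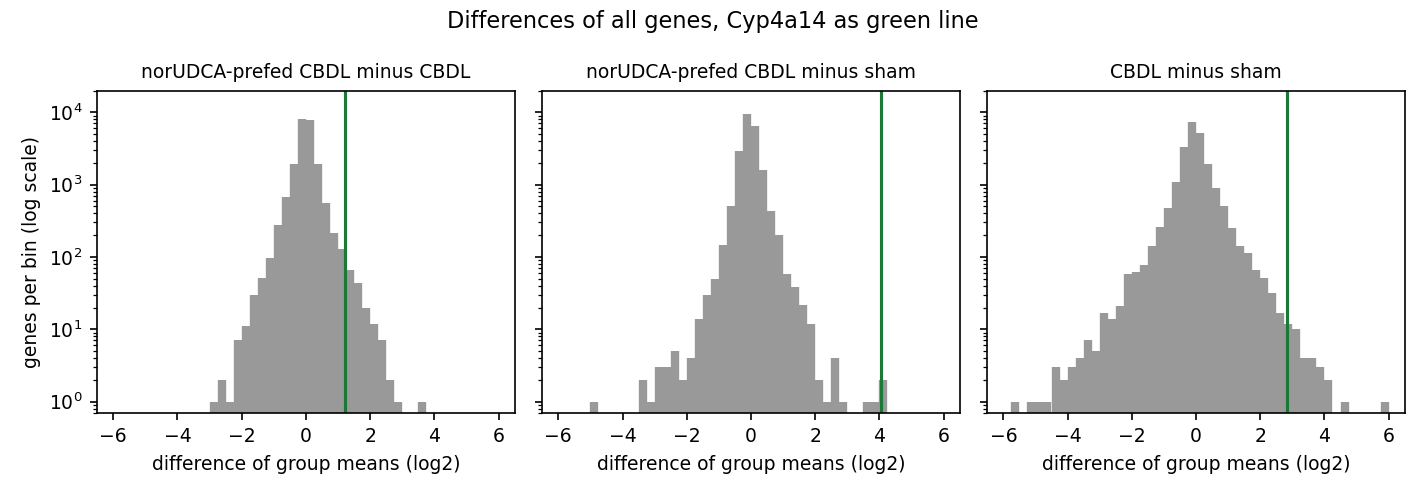
Histograms of the difference of group means (log2) over 22180 genes for 3 comparisons, with the number of genes per bin on a log axis and Cyp4a14 as a green line. The line is at 1.22, 4.06 and 2.84 in the panels from left to right, and no gene lies to the right of it in the panel of norUDCA-prefed CBDL minus sham.

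Of the 19 other CYP4 genes listed, 17 had a row of their own, and Cyp4a10 and Cyp4a32 did not. In CBDL against sham 6 of these 17 fell and 2 rose, with a median difference of -0.18 against -0.06 over all genes. Among all genes 11.5% fell and 10.3% rose. Cyp4a12a, the arachidonic acid omega-hydroxylase gene of male mouse kidney, was 5.27, 6.01 and 6.58 on the CBDL arrays and 9.11, 9.58 and 9.67 on the sham arrays. It fell by 3.50 (SE 0.31, adjusted p = 7.07e-05), and the groups did not overlap. Cyp4a31, the nearest gene on the Cyp4a10 side with a row of its own, was 10.37, 10.26 and 11.19 in CBDL and 11.41, 11.46 and 11.41 in sham. It fell by 0.82 (adjusted p = 0.0186), which no longer passed without sham_159, CBDL_164 or CBDL_165 (adjusted p up to 0.0733). Cyp4b1, which lies at the end of the cluster and oxidises short fatty acids and xenobiotics, fell by 2.02 (SE 0.20, adjusted p = 0.000121). Cyp4f14, a leukotriene B4 omega-hydroxylase gene, fell by 1.34 (adjusted p = 0.000704), Cyp4f13 by 0.67 (adjusted p = 0.00466) and Cyp4f40 by 0.67 (adjusted p = 0.0223). The call of Cyp4f40 ended without sham_158, sham_159, CBDL_164 or CBDL_165 (adjusted p up to 0.0749). Those that rose were Cyp4v3, the mouse counterpart of the fatty acid hydroxylase gene CYP4V2, at 0.84 (adjusted p = 0.00229), and Cyp4f16 at 0.39 (adjusted p = 0.0123).

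In norUDCA-prefed CBDL against CBDL 3 of the 17 other CYP4 genes rose and 1 fell (median difference 0.02 against 0.00 over all genes). Among all genes 3.61% rose and 3.2% fell. Cyp4a31 was 11.51, 11.64 and 11.46 in norUDCA-prefed CBDL, each above the highest CBDL array, and rose by 0.93 (adjusted p = 0.0289). Cyp4b1 rose by 1.06 (adjusted p = 0.0162) and Cyp4f14 by 0.785 (adjusted p = 0.0348), while Cyp4v3 fell by 0.59 (adjusted p = 0.0396). Cyp4a12a, at 6.01, 6.69 and 6.55 in norUDCA-prefed CBDL, overlapped with CBDL (difference 0.46, adjusted p = 0.502). These calls did not hold in every fit with 1 array left out. The count of 4 was 0 without CBDL_164, norUDCA_CBDL_172, norUDCA_CBDL_175 or norUDCA_CBDL_179, 1 without CBDL_165 and 2 without sham_158. In norUDCA-prefed CBDL against sham none of the 17 rose by limma (1 had an unadjusted p under 0.05 and a positive difference), beside 1.82% of all genes. The 2 that fell, beside 1.37% of all genes, were Cyp4a12a at -3.04 (adjusted p = 0.00144) and Cyp4b1 at -0.96 (adjusted p = 0.0335). Leaving out any sham array, CBDL_164 or any norUDCA-prefed CBDL array took the call of Cyp4b1 away (adjusted p up to 0.137), so that the count was then 1. The highest positive difference among the 17 in that comparison was 0.28, that of Cyp4f16, beside 4.06 for Cyp4a14. Signals at or below about 5, as for Cyp4a29 and Cyp4a30b on all arrays and Cyp4f14 on all but sham_158 and sham_159, are near the dim end of the scale. CYP4A genes are closely related, and whether probes of one read the transcript of another was not tested.

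**Figure D3:**
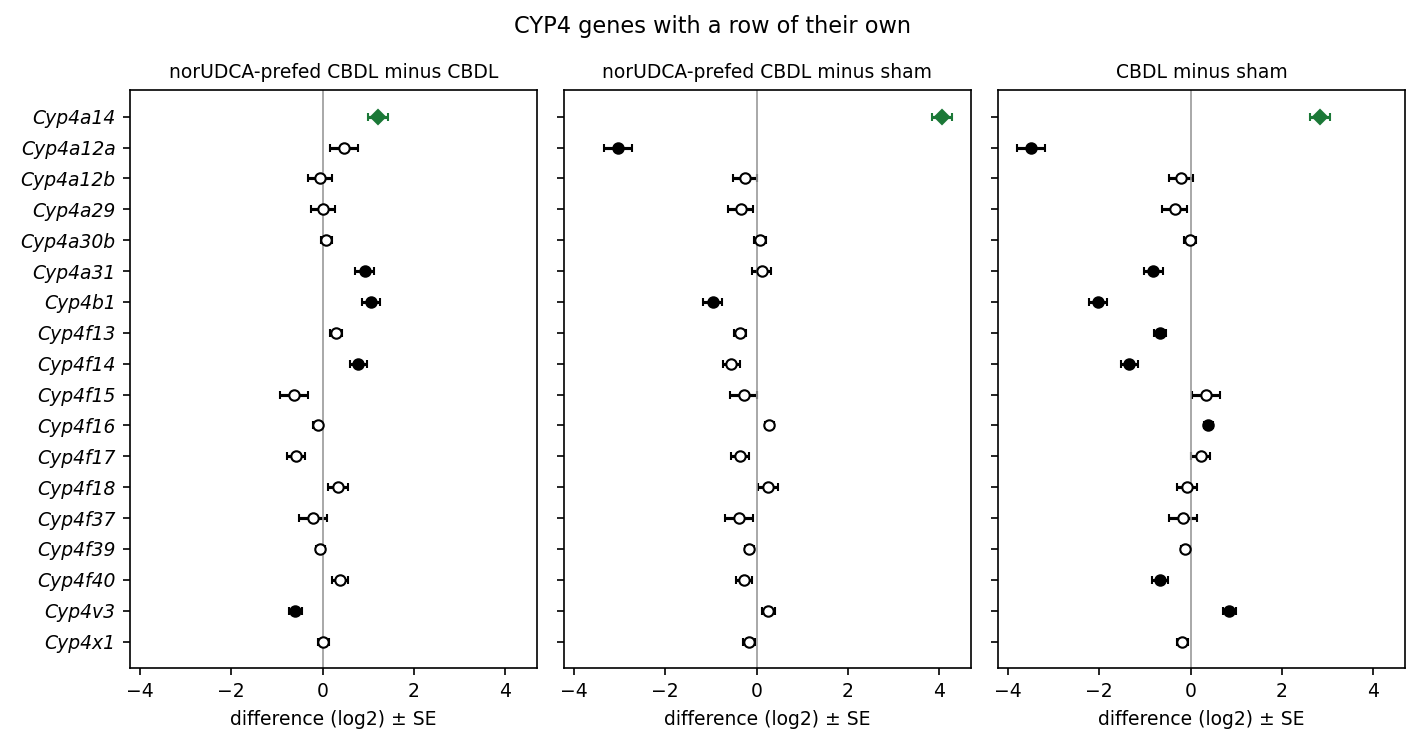
Difference of group means (log2) with its SE for Cyp4a14 (green diamond, not tested) and 17 other CYP4 genes, in 3 comparisons, with filled circles for adjusted p under 0.05 and open circles for the rest. Cyp4a14 is at 4.06 for norUDCA-prefed CBDL minus sham, where the others lie between -3.04 and 0.28.

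Receptors and cofactors of the PPAR pathway fell or did not pass in CBDL against sham, with 1 exception. Of 16 measured genes 5 fell and 1 rose (median difference -0.38), beside 11.5% and 10.3% of all genes. Ppara itself was 8.48, 8.22 and 8.66 in norUDCA-prefed CBDL, 7.44, 7.91 and 8.13 in CBDL and 8.37, 8.37 and 8.22 in sham. Its CBDL arrays were the lowest 3 of the 9, and neither CBDL minus sham (-0.50, adjusted p = 0.0746) nor norUDCA-prefed CBDL minus CBDL (0.63, adjusted p = 0.0671) passed. Rxra, the partner receptor, fell by 0.64 in CBDL against sham (adjusted p = 0.00112), the coactivator gene Ppargc1b by 0.73 (adjusted p = 0.000833), Esrra by 0.65 (adjusted p = 0.00266) and Hnf4a, a regulator of proximal tubule and liver genes, by 0.68 (adjusted p = 0.00144). Ppard fell by 1.14 (adjusted p = 0.0239), which no longer passed without sham_159, sham_160 or any 1 CBDL array (adjusted p up to 0.0846). The member that rose was Pparg, the receptor of adipocyte differentiation, at 1.24 (adjusted p = 0.00625). Adipocyte markers moved with it. Of 9 measured, 4 rose in CBDL against sham, their mean log2 level was 6.09 to 7.37 in norUDCA-prefed CBDL, 7.06 to 8.21 in CBDL and 5.88 to 6.65 in sham, and their part in the difference of Pparg was not tested.

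In norUDCA-prefed CBDL against CBDL 3 of the 16 PPAR pathway genes rose, beside 3.61% of all genes. Pparg fell, by 1.16 (adjusted p = 0.0268), where 3.2% of all genes fell. The PPAR pathway genes that rose were Hnf4a by 0.54 (adjusted p = 0.0194), Ppargc1a, a coactivator of mitochondrial genes, by 0.45 (adjusted p = 0.0388), and Esrra by 0.47 (adjusted p = 0.0384). The count of 4 called, Pparg included, was 0 without CBDL_164 or any 1 norUDCA-prefed CBDL array, 1 without CBDL_165 and 2 without sham_158. Against sham 0 of the 16 were called by limma in norUDCA-prefed CBDL (3 at an unadjusted p under 0.05, all lower), beside 3.18% of all genes. With variances that were not moderated the count was also 0, with an intensity trend 1 and with array weights 2.

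Genes of fatty acid oxidation, several of which PPARalpha is known to control in liver, were mostly lower in CBDL than in sham. In CBDL against sham 11 of 15 measured peroxisomal genes fell and 1 rose (median difference -0.68), beside 11.5% and 10.3% of all genes. Of 22 measured genes of mitochondrial oxidation and ketogenesis 14 fell and 0 rose (median difference -0.65), with 1 at an unadjusted p under 0.05 and a positive difference. Ehhadh, the bifunctional enzyme of peroxisomal oxidation, was 10.77, 10.38 and 10.53 in norUDCA-prefed CBDL, 9.67, 9.17 and 9.95 in CBDL and 11.03, 10.96 and 11.17 in sham. The CBDL arrays were the lowest, and Ehhadh fell by 1.46 in CBDL against sham (SE 0.19, adjusted p = 0.000474). Acaa1b, a peroxisomal thiolase gene, was 9.34, 9.11 and 9.34 in norUDCA-prefed CBDL, 7.94, 8.25 and 8.34 in CBDL and 9.34, 9.46 and 9.29 in sham. It fell by 1.19 in CBDL against sham (SE 0.13, adjusted p = 0.000174). Crot, which makes medium-chain acylcarnitines in peroxisomes, fell by 1.34 (adjusted p = 0.000154) and Pex11a, a gene of peroxisome division, by 0.68 (adjusted p = 0.00266). Among the mitochondrial genes Bdh1, of ketone body metabolism, fell by 1.80 (adjusted p = 5.21e-05), Acads, the short-chain acyl-CoA dehydrogenase gene, by 1.15 (adjusted p = 0.000126) and Acadm, its medium-chain relative, by 0.90 (adjusted p = 0.000185). The peroxisomal gene that rose was Abcd2, a fatty acyl-CoA transporter gene also expressed in adipocytes, at 2.02 (adjusted p = 0.00103). Pdk4, which restrains glucose oxidation, overlapped between CBDL and sham (difference 0.77, adjusted p = 0.133), and Acot1, an acyl-CoA thioesterase gene, differed by -0.56 (adjusted p = 0.153).

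Of the 37 peroxisomal and mitochondrial genes 12 rose and 1 fell in norUDCA-prefed CBDL against CBDL (median difference 0.44). Among all genes 3.61% rose and 3.2% fell. Acot3, a peroxisomal acyl-CoA thioesterase gene, was 1.45 higher (adjusted p = 0.01) and Acaa1b 1.09 higher (adjusted p = 0.00655), and these calls held in each of the 9 fits with 1 array left out. Ehhadh rose by 0.96 (adjusted p = 0.0171), Acaa2, a mitochondrial thiolase gene, by 0.86 (adjusted p = 0.016) and Bdh1 by 0.885 (adjusted p = 0.011), while Abcd2 fell by 1.52 (adjusted p = 0.0181). Of these, Bdh1 held its call throughout, and Abcd2 lost its call without CBDL_164 or norUDCA_CBDL_175 (adjusted p up to 0.0762). Ehhadh lost its call without CBDL_164 or any 1 norUDCA-prefed CBDL array (adjusted p up to 0.0677), and Acaa2 without CBDL_164, CBDL_165, norUDCA_CBDL_175 or norUDCA_CBDL_179 (adjusted p up to 0.0627). The count of 13 was 3 without CBDL_164, 6 without CBDL_165, 23 without CBDL_170, 5 without norUDCA_CBDL_172, 3 without norUDCA_CBDL_175 and 4 without norUDCA_CBDL_179. Against sham 0 of the 37 rose in norUDCA-prefed CBDL by limma (1 at an unadjusted p under 0.05), beside 1.82% of all genes. In the same comparison 3 fell, beside 1.37% of all genes, namely Crot at -0.95, Bdh1 at -0.92 and Acads at -0.70 (adjusted p = 0.00853, 0.0112 and 0.0123). The call of Bdh1 ended without sham_160 or norUDCA_CBDL_179 (adjusted p up to 0.0626) and that of Acads without norUDCA_CBDL_172 (adjusted p = 0.0667), while that of Crot held in each of the 9 fits. In all 37 the difference of norUDCA-prefed CBDL from sham was between -0.95 and 0.72.

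**Figure D4:**
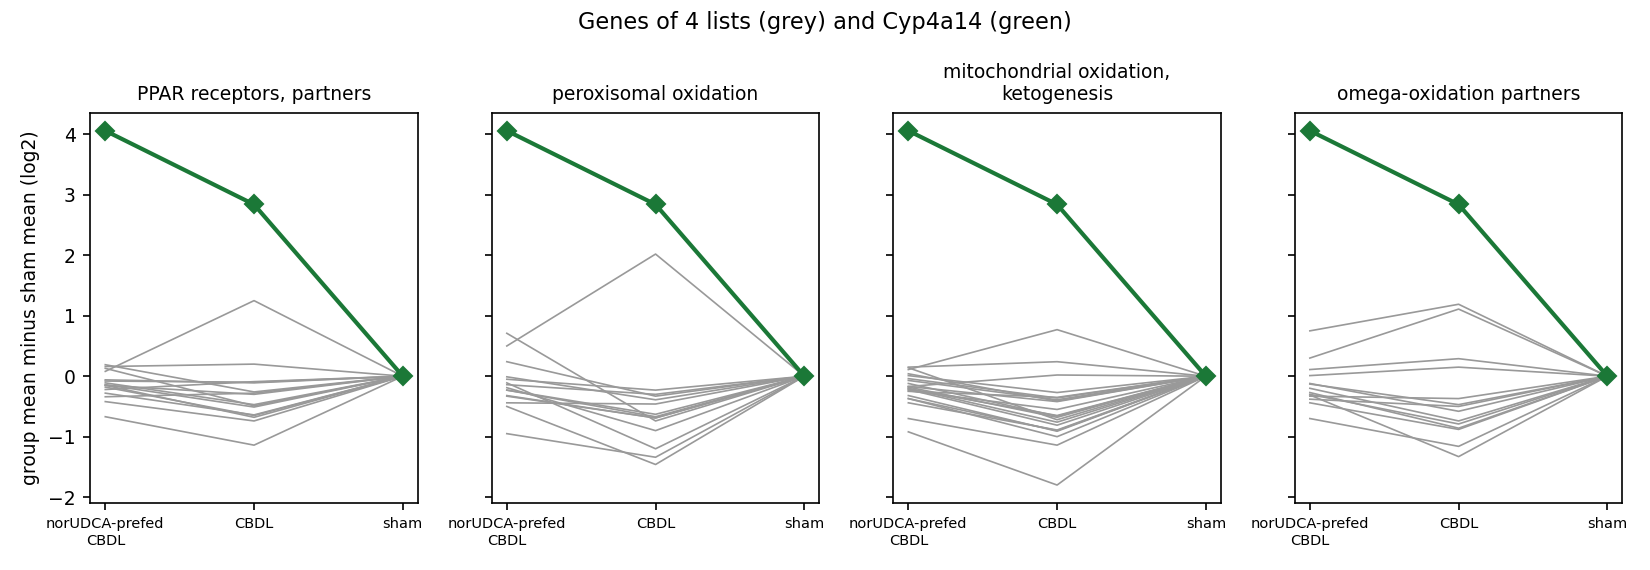
Group mean minus sham mean (log2) for each gene of 4 lists (grey lines) and for Cyp4a14 (green), by group. Cyp4a14 is at 2.84 in CBDL and 4.06 in norUDCA-prefed CBDL, while most grey lines lie below 0 in CBDL and closer to 0 in norUDCA-prefed CBDL.

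Proximal tubule markers moved with these lists. Among all genes 11.5% fell and 10.3% rose in CBDL against sham, and 3.61% rose and 3.2% fell in norUDCA-prefed CBDL against CBDL. Of 16 proximal markers 15 fell and 0 rose in CBDL against sham, and 11 rose and 0 fell in norUDCA-prefed CBDL against CBDL. Their mean log2 level was 11.75 to 11.79 in norUDCA-prefed CBDL, 10.22 to 11.23 in CBDL and 12.1 to 12.17 in sham. The count of 11 was 2 without CBDL_164, 4 without norUDCA_CBDL_172, 3 without norUDCA_CBDL_175 and 4 without norUDCA_CBDL_179. Of 12 macrophage markers 12 rose in CBDL against sham and 11 fell in norUDCA-prefed CBDL against CBDL (4 without CBDL_164, 7 without CBDL_165, 6 without norUDCA_CBDL_172, 2 without norUDCA_CBDL_175 and 7 without norUDCA_CBDL_179), with a mean log2 level of 8 to 8.05 in norUDCA-prefed CBDL, 8.67 to 9.4 in CBDL and 6.79 to 7.18 in sham. Of 11 tubular injury markers 10 rose in CBDL against sham and 9 fell in norUDCA-prefed CBDL against CBDL, with a mean log2 level of 8.68 to 8.88 in norUDCA-prefed CBDL, 9.49 to 9.75 in CBDL and 6.84 to 6.92 in sham. The count of 9 was 3 without CBDL_164, norUDCA_CBDL_172 or norUDCA_CBDL_175 and 4 without norUDCA_CBDL_179. Of 13 markers of loop, distal tubule and collecting duct 2 rose and 6 fell in CBDL against sham (5 called in all without any 1 sham array), and 4 rose and 0 fell in norUDCA-prefed CBDL against CBDL by limma (1 lower at an unadjusted p under 0.05). Their mean log2 level was 10.05 to 10.13 in norUDCA-prefed CBDL, 9.16 to 9.78 in CBDL and 9.9 to 9.96 in sham, and the count of 4 was 0 without any 1 norUDCA-prefed CBDL array and 2 without sham_158, sham_160, CBDL_164 or CBDL_165. The signal of Cyp4a14 was highest in the group whose proximal markers were in between, and lowest in the sham group, where they were highest. The part of these marker lists in the lists above and in the level of Cyp4a14 was not tested. In bulk tissue fewer cells of a type and less RNA per cell cannot be told apart.

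Genes of lipid uptake and storage, several of them PPAR targets in other tissues, gave no common direction. In CBDL against sham 5 of 20 fell and 2 rose (median difference -0.10), beside 11.5% and 10.3% of all genes. The number called was 4 in all without CBDL_164. Cd36, a fatty acid transporter gene, fell by 1.39 (adjusted p = 0.00237), Gpam, the first enzyme of glycerolipid synthesis, by 0.85 (adjusted p = 0.00179) and Vnn1, a pantetheinase gene, by 1.14 (adjusted p = 0.00599). Angptl4, an inhibitor of lipoprotein lipase and a widely used PPAR reporter, was 7.43, 7.43 and 8.09 in norUDCA-prefed CBDL, 7.07, 7.43 and 8.30 in CBDL and 7.30, 6.99 and 7.43 in sham. All 3 groups overlapped, and the difference of norUDCA-prefed CBDL from sham was 0.41 (adjusted p = 0.533). Plin2, the lipid droplet coat gene, differed by 0.36 in CBDL against sham (adjusted p = 0.125). Between norUDCA-prefed CBDL and CBDL limma called 0 of the 20, beside 6.8% of all genes. Of the 20, 3 had an unadjusted p under 0.05. The count called was 3 without CBDL_170, 1 with array weights and 0 with variances that were not moderated.

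Enzymes that act with or after omega-hydroxylation mostly fell in CBDL against sham, where 8 of 14 fell and 2 rose (median difference -0.54). The shares of all genes were 11.5% and 10.3%. Aldh3a2, the fatty aldehyde dehydrogenase that completes omega-oxidation, fell by 1.16 (SE 0.13, adjusted p = 0.000188), and Cyb5a, the cytochrome b5 that passes electrons to P450 enzymes, by 0.88 (adjusted p = 0.000307). Aldh9a1 fell by 1.33 (adjusted p = 0.000973). Acsl4, an arachidonate-preferring acyl-CoA synthetase gene, rose by 1.19 (adjusted p = 0.000112) and Aldh1a1, a retinal dehydrogenase gene, by 1.11 (adjusted p = 0.000777). Between norUDCA-prefed CBDL and CBDL 4 rose and 1 fell, beside 3.61% and 3.2% of all genes. The count of 5 was between 0 and 8 with 1 array left out. It was 0 without CBDL_164, norUDCA_CBDL_172 or norUDCA_CBDL_175, 1 without CBDL_165 or norUDCA_CBDL_179 and 2 without sham_160. It was 3 without sham_158 or sham_159 and 8 without CBDL_170. Against sham, Aldh3a2 was still lower in norUDCA-prefed CBDL, by -0.69 (adjusted p = 0.019), a call that ended without sham_160 or any 1 norUDCA-prefed CBDL array (adjusted p up to 0.0866). Acsl4 was higher by 0.75 (adjusted p = 0.0098, and 0.0584 without norUDCA_CBDL_179).

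Among 18 enzymes and receptors of the other routes of arachidonic acid, 5 fell and 3 rose in CBDL against sham (median difference 0.09). The shares of all genes were 11.5% and 10.3%. The epoxygenase genes Cyp2j11, Cyp2j13 and Cyp2j5 fell (differences -2.43, -2.12 and -1.13, adjusted p = 0.000519, 8.13e-05 and 0.00973). Ephx2, the soluble epoxide hydrolase that degrades epoxides of arachidonic acid, fell by 2.01 (adjusted p = 9.62e-05). Ptgs2, the inducible cyclooxygenase, rose by 1.72 (adjusted p = 0.000574) and Pla2g4a, the phospholipase that releases arachidonic acid, by 1.21 (adjusted p = 0.000376). In norUDCA-prefed CBDL against CBDL Cyp2j11 rose by 1.84 (adjusted p = 0.0123) and Ephx2 by 1.045 (adjusted p = 0.0142), and both lost their call without CBDL_164 or norUDCA_CBDL_175 (adjusted p up to 0.057 and 0.0648), Ephx2 also without norUDCA_CBDL_179.

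Nuclear receptors that sense bile acids and foreign compounds, with their target genes, were looked at because norUDCA is a bile acid. In CBDL against sham 3 of 18 rose and 2 fell (median difference -0.11), beside 10.3% and 11.5% of all genes. The number called was 3 in all without sham_160 or CBDL_165. The aryl hydrocarbon receptor gene Ahr rose by 1.09 (adjusted p = 0.000482) and Cyp1b1, one of its targets, by 1.35 (adjusted p = 6.52e-05), while Cyp2a5 fell by 2.22 (adjusted p = 0.00121). Cyp1a1 and Cyp1a2, which are standard targets of the same receptor, did not pass in CBDL against sham (differences -0.18 and -0.13, adjusted p = 0.587 and 0.708). Signals were dim for Cyp1a1 (group means 4.55 to 4.73), Cyp1a2 (5.12 to 5.38) and Cyp2a5 (2.98 in CBDL, 5.2 in sham). In norUDCA-prefed CBDL against CBDL 1 of the 18 rose and 1 fell, beside 3.61% and 3.2% of all genes. They were Cyp2a5 at 1.585 (adjusted p = 0.0243) and Ahr at -0.79 (adjusted p = 0.0134). The count of 2 was 0 without CBDL_164 or norUDCA_CBDL_175 and 4 without CBDL_170. It was 1 without CBDL_165, norUDCA_CBDL_172 or norUDCA_CBDL_179. Nr1i2, which encodes the xenobiotic receptor PXR, was 0.78 higher in norUDCA-prefed CBDL than in sham (adjusted p = 0.0314), a call that ended without any 1 sham array or norUDCA_CBDL_172 or norUDCA_CBDL_179 (adjusted p up to 0.141). Its liver targets Cyp3a11 and Cyp2b10 differed by -0.48 (adjusted p = 0.23) and -0.19 (adjusted p = 0.82) in the same comparison. Their group means were 4.25 to 4.73 and 4.13 to 4.76, near the dim end of the scale, where a change may go unseen. Nr1h4, the bile acid receptor FXR, differed by -0.46 in CBDL against sham (adjusted p = 0.12) and by 0.18 in norUDCA-prefed CBDL against CBDL (adjusted p = 0.72). Nr0b2, of the same list, fell by 0.38 in CBDL against sham (adjusted p = 0.0482). That call was lost without any 1 array but sham_158 (adjusted p up to 0.123). Slc51a, also of the list, was higher on each norUDCA-prefed CBDL array than on any other array. Neither its difference of 1.52 from CBDL nor that of 0.73 from sham passed (adjusted p = 0.0928 and 0.479).

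Cyp4a14 is also abundant in liver, and its level differs between male and female mice. Of 15 hepatocyte markers 2 rose and 3 fell in CBDL against sham, beside 10.3% and 11.5% of all genes. Their mean log2 level was 6.22 to 6.47 in norUDCA-prefed CBDL, 5.91 to 6.31 in CBDL and 6.08 to 6.34 in sham. The count of 5 was 3 without sham_159, sham_160 or CBDL_165. The members did not move together. Fgb, a fibrinogen chain gene, was 7.05, 9.21 and 8.27 in norUDCA-prefed CBDL, 6.38, 8.30 and 9.21 in CBDL and 5.2, 5.54 and 5.71 in sham. It rose in CBDL against sham (2.48, adjusted p = 0.0264), a call lost without any 1 sham array, CBDL_165 or CBDL_170 (adjusted p up to 0.0843), and was 2.69 higher in norUDCA-prefed CBDL than in sham (adjusted p = 0.0689). Fgg, another fibrinogen chain gene, and Serpina1a, of the alpha-1-antitrypsin family, were 2.06 and 0.36 higher in norUDCA-prefed CBDL than in sham (adjusted p = 0.254 and 0.206), each without overlap. Alb, the albumin gene, was lower in that comparison, by -0.91 (adjusted p = 0.0152, and up to 0.0712 without sham_159, sham_160 or norUDCA_CBDL_172). Ttr, the transthyretin gene, and Apob, the apolipoprotein B gene, had bright signals in sham (11.30 to 11.53 and 10.74 to 10.86), fell in CBDL (-2.07 and -0.97, adjusted p = 0.00126 and 0.00357) and rose in norUDCA-prefed CBDL against CBDL (1.35 and 0.94, adjusted p = 0.0352 and 0.0163). Alb also rose in that step (0.61, adjusted p = 0.0476), in which 3.61% of all genes rose. The 3 calls were 1 without CBDL_164 or any 1 sham array and 0 without any 1 norUDCA-prefed CBDL array. Cyp2c50 and Mup20, both liver genes, averaged under 5 in each group. The part of the hepatocyte markers in the level of Cyp4a14 was not tested. Of 10 male-biased kidney genes all 10 fell in CBDL against sham (median difference -2.51), beside 11.5% of all genes. Among the 10 are Cyp4a12a, Cyp4b1 and Cyp2j13, which were also counted above with the CYP4 genes or the arachidonic acid enzymes. In norUDCA-prefed CBDL 6 of these 10 were lower than in sham (median difference -1.73), beside 1.37% of all genes. Their mean log2 level was 9.5 to 9.85 in norUDCA-prefed CBDL, 8.26 to 9.5 in CBDL and 11.07 to 11.42 in sham. norUDCA_CBDL_172 had the lowest signals of Kdm5d (6.46), Eif2s3y (7.64) and Uty (7.66), which are Y-linked. Xist, the transcript of the inactive X chromosome, was 3.66 on that array, the lowest of the 9, and 4.39 on the highest. Cyp4a14 on that array lay between the others of its group, and without it the difference of norUDCA-prefed CBDL from CBDL was 1.142 and from sham 3.982. The part of the male-biased genes in the level of Cyp4a14 was not tested.

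The genes whose profile was most like that of Cyp4a14 were found by Pearson's r of log2 signals over the 9 arrays, among 1425 genes whose group means spanned at least 1. The highest was Gsta4, a glutathione transferase for aldehydes from lipid peroxidation (r = 0.968), then the carbonyl reductase gene Cbr1 (0.966), Cpn1, the catalytic subunit of carboxypeptidase N (0.957), and Abcb1b, a P-glycoprotein gene (0.948). Next came Gm16685, a predicted gene (0.932), the clock gene Per1 (0.932), Npl, of sialic acid breakdown (0.930), the complement genes Cfi (0.928) and C4b (0.913), and Havcr1 (0.906). The arrays fall into 3 groups, so r mostly follows the group means, and it is given without a test. C7, the next gene, also had 0.906 when rounded, so the tenth place was narrow.

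Of these 10, Gsta4, Cbr1 and Abcb1b had every norUDCA-prefed CBDL array above every CBDL array. Gsta4 was 10.46, 10.06 and 10.27 in norUDCA-prefed CBDL, 9.61, 9.79 and 9.97 in CBDL and 9.02, 8.63 and 8.87 in sham, without overlap between neighbouring groups. Cbr1 was 10.73, 10.29 and 10.74 in norUDCA-prefed CBDL, 9.98, 10.22 and 10.20 in CBDL and 9.66, 9.40 and 9.33 in sham, again without overlap. Abcb1b was 7.74, 7.25 and 7.18 in norUDCA-prefed CBDL, 6.86, 7.11 and 6.78 in CBDL and 6.07, 5.90 and 6.01 in sham. The differences of Gsta4, Cbr1 and Abcb1b were 1.42, 1.12 and 1.40 for norUDCA-prefed CBDL minus sham and 0.47, 0.45 and 0.47 for norUDCA-prefed CBDL minus CBDL. They were chosen for likeness to Cyp4a14, and 11.6% of all genes also had every norUDCA-prefed CBDL array above every CBDL array, so their order of groups is a description only. Cpn1 and Havcr1 (9.04, 9.36 and 9.40 in norUDCA-prefed CBDL, 8.77, 8.66 and 9.95 in CBDL) overlapped between the ligated groups. C4b was lower on each norUDCA-prefed CBDL array (8.94, 8.82 and 8.98) than on any CBDL array (9.08, 9.26 and 9.12).

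**Figure D5:**
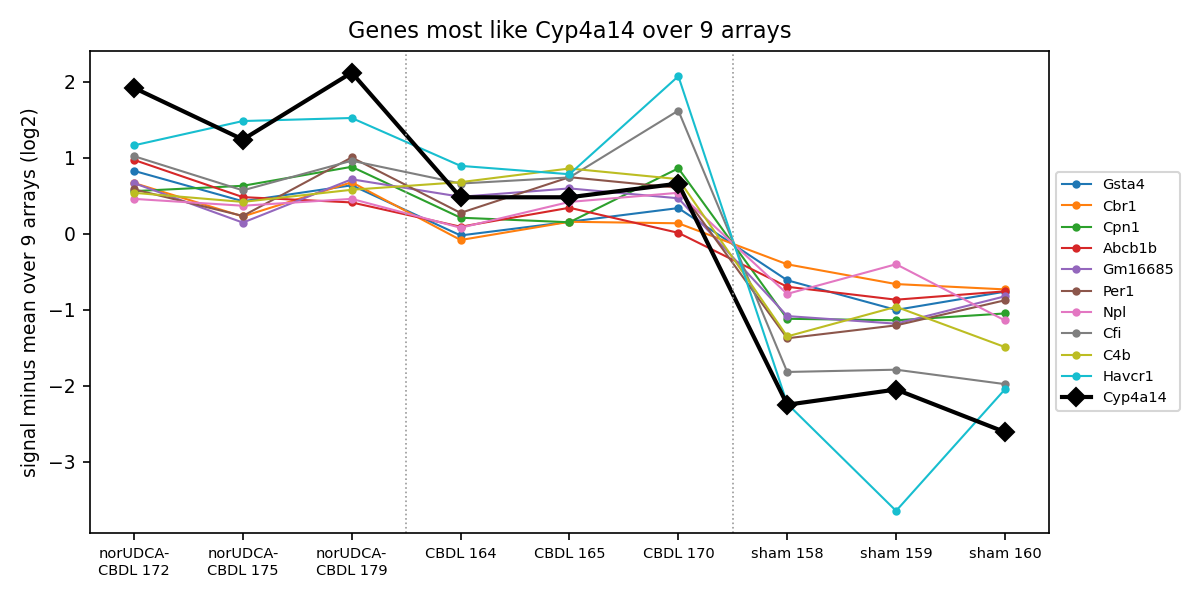
Log2 signal minus its mean over the 9 arrays for Cyp4a14 (black) and the 10 genes with the highest r, with arrays in groups separated by dotted lines. Each line is lowest on the 3 sham arrays, and Cyp4a14 lies above Gsta4, Cbr1 and Abcb1b on each norUDCA-prefed CBDL array.

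On the first principal component (58.3% of the variance) the norUDCA-prefed CBDL arrays lay between the CBDL and the sham arrays, and on the second (13%) sham_159 and CBDL_165 stood apart from the other 7. Without these 2 arrays the differences of Cyp4a14 were 2.997 for CBDL minus sham, 1.194 for norUDCA-prefed CBDL minus CBDL and 4.191 for norUDCA-prefed CBDL minus sham. Correlations across genes between arrays of a group were 0.986 to 0.995, and genes are not independent replicates. With 3 arrays a side the smallest two-sided p of exact permutation is 0.1, so the calls rest on limma.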

How the data were processed

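The authors deposited log2 signals, for which the submitters' processing notes name RMA and Partek 6.6. RNA was extracted with TRIzol and labelled for whole-transcript arrays, per the labels' protocols. Array model, genome build and filters are not stated in the labels, and no positions are printed. Of 41345 rows 23521 carried 1 gene symbol in the annotation of the platform, 1814 several and 16010 none. Per gene the brightest row with 1 symbol was used, which left 1341 rows out. limma 3.58.1 in R 4.3.3 was fitted to all 9 arrays with 1 mean per group (degrees of freedom: 6 residual, 3.77 prior). A gene rose or fell where its Benjamini-Hochberg adjusted p over 22180 genes was under 0.05, two-sided. Differences are of mean log2 signals, SE is from the fit, and dim genes were kept. The number of arrays limits the precision (median SE of a difference 0.14). Simulated data held changes in far fewer genes than were called in any comparison, so shares found there may not hold for the measured data. On the simulated data the fit called 26 to 31% of planted 1.5-fold changes and 67 to 74% of planted 2-fold changes, depending on the comparison. Of its calls there 2.9 to 4.9% were false. A difference of such size that did not pass is therefore not shown to be absent.

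Cyp4a14, the gene lists and the marker lists were chosen with earlier results of these data known. The other named genes follow a rule: every CYP4 gene, up to 5 members of each list with the lowest p per comparison, a fixed set of PPAR receptors and targets, the 10 genes most like Cyp4a14 and the 5 largest increases per comparison. Nr1h4, Cyp2b10, Cyp2c50, Mup20, Pex11a, Cyp1a1, Cyp1a2, Xist, C7 and the Y-linked genes fall outside the rule and were added after their values were seen. Sequences of Cyp4a14 were not used here. Alternatives were an intensity trend, array weights, variances that were not moderated, fits of only the compared arrays, quantile normalization, median centring, a limit of 5 on the mean signal, the mean of all rows of a gene, medians, Spearman's rho and leaving out each array, and, chosen after seeing the data, leaving out sham_159 and CBDL_165 together.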

Additional observations from a re-analysis of the deposited data

Results flagged for a closer look

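A row of the value table that the annotation gives to 2 CYP4A genes at once, and that therefore names neither, was not part of the comparisons. It was picked because every norUDCA-prefed CBDL array lay above every sham array, as for 8.96% of the genes with a row of their own. It was 10.55, 10.82 and 10.56 in norUDCA-prefed CBDL, 8.69, 8.44 and 9.19 in CBDL and 9.54, 9.88 and 9.75 in sham. The difference of norUDCA-prefed CBDL from sham was 0.92, that of CBDL from sham -0.95 and that of norUDCA-prefed CBDL from CBDL 1.87, and none of these was tested. Unlike Cyp4a14, this row was lower on each CBDL array than on any sham array, as were 20% of the genes with a row of their own. A second row given to 2 CYP4A genes was low on all arrays, at 3.28, 2.82 and 3.47 in norUDCA-prefed CBDL, 2.94, 2.92 and 3.02 in CBDL and 3.69, 4.14 and 3.32 in sham. Its difference of norUDCA-prefed CBDL from sham was -0.53, against the direction of the first row, and was not tested either.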

How the results depend on the processing

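The differences of Cyp4a14 kept their direction and moved by less than the spread between replicates under quantile normalization, median centring, medians in place of means and without sham_159 and CBDL_165. With 1 array left out they were 2.688 to 2.967 for CBDL minus sham, 1.043 to 1.486 for norUDCA-prefed CBDL minus CBDL and 3.883 to 4.326 for norUDCA-prefed CBDL minus sham. Counts of calls in CBDL against sham stayed within 1.5 times under every alternative run for all genes (4844, 3794 to 4604 with 1 array left out), for the listed genes together (77, 64 to 80), for fatty acid oxidation (26, 21 to 29) and for the other CYP4 genes (8, 6 to 8).

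Counts of calls in both comparisons of norUDCA-prefed CBDL depended on the processing. Some of the fits also had fewer arrays, and the cause was not tested. For norUDCA-prefed CBDL minus CBDL, in the order all genes, listed genes, fatty acid oxidation and other CYP4 genes, the counts were 1509, 32, 13 and 4. They were 25, 0, 0 and 0 with variances that were not moderated, 912, 14, 6 and 2 with only the 6 arrays compared, and 749, 14, 7 and 2 without sham_159 and CBDL_165. With 1 array left out they were 278 to 2043, 3 to 55, 3 to 23 and 0 to 4. For norUDCA-prefed CBDL minus sham the counts were 706, 16, 3 and 2, and 169, 4, 0 and 1 with variances that were not moderated. Array weights gave 1638 for all genes and 5 for fatty acid oxidation, and the limit of 5 on the mean signal 5 for fatty acid oxidation. With 1 array left out they were 156 to 822, 7 to 19, 2 to 4 and 1 to 2. Of the 65 named genes called in norUDCA-prefed CBDL minus CBDL 11 kept their call whichever array was left out, as did 97 of 117 in CBDL minus sham and 25 of 44 in norUDCA-prefed CBDL minus sham. No named gene that was called in the main fit or in the alternative changed direction between them. A change of direction in a gene called in neither was not counted. Of the 10 genes most like Cyp4a14, 7 to 9 stayed among the first 10 with 1 array left out, 8 with quantile normalization and 5 by Spearman's rho. No paired analysis was possible because the array numbers are not shared between groups.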
